A study of Mus musculus with 8 samples.

Results

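The 36 collagen genes taken from the mouse annotation, of 22380 protein-coding genes in all, were described by the open chromatin called at their start sites and along their bodies. They were listed by name, with earlier results of these data known, and no measured value enters the rule. The assay was ATAC-seq, which maps accessible DNA as the places where the transposase Tn5 inserts adapters. Stromal cells from the bone marrow of 6 weeks old C57BL/6J mice, wild type throughout, gave 7 libraries with the titles ATAC1 to ATAC7, and a library titled Input was the control of each. Strain, genotype, age and tissue are the same in the labels of all libraries, and the labels do not tie a title to a sorted population. Libraries therefore carry their titles here. Each title had 1 library, so no difference between libraries has a replicate check and no p-value is given.

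Collagens are the main structural proteins of the extracellular matrix, built from chains that wind around each other into a rope-like helix. The fibril-forming types I, III, V and XI give bone, skin and vessel walls their tensile strength, and type I is the major protein of bone matrix made by osteoblasts. Type IV forms the sheet of basement membranes, type VI forms beaded filaments around cells, types IX, XII, XIV and XVI sit on the surface of fibrils, and types XIII, XVII, XXIII and XXV span the cell membrane. In marrow, stromal cells make much of this matrix.

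A start-site peak is a called peak whose centre lay within 1000 bases of the start site of any annotated transcript of the gene. All other peaks centred in the gene or within 10 kb of it, and not within 1000 bases of the start of another protein-coding gene, are called other peaks. Reads are the library's reads in the wider region around a peak, Input reads are those of the control in the same region, and fold is the authors' scaled ratio of the 2. The scale factor of the fold was highest in ATAC2 (1.58), ATAC5 (1.71) and ATAC6 (1.57), was 1.23 in ATAC1, and was 1.01, 1.13 and 1.10 in ATAC3, ATAC4 and ATAC7. It thus raises folds in the first 3 against the last 3, in some pairs by over 1.5 times, and reads over Input without the factor are given where folds of libraries are ordered. Reads are not scaled for the size of a library, so read counts of different libraries are set side by side uncorrected. The counted regions were called separately in each library and differ in width (from 133 to 1212 bases for the best-ranked start-site peaks of the collagen genes), so a wider region holds more reads. Reads per kb are given for the genes and regions described most closely, and no order of libraries is drawn from reads alone. The lists held 24510 peaks in ATAC1, 32280 in ATAC2, 16027 for ATAC3, 15650 in ATAC4, 31479 in ATAC5, 28969 in ATAC6 and 15188 in ATAC7. The sequencing depth of the libraries is unknown, because the lists hold reads in peaks alone, and a gene without a peak is not shown to be closed. In these bulk samples a site open in fewer cells and a site less open in every cell cannot be told apart.

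The start regions of Col1a1, Col23a1 and Col11a1 are shown because the results below turn on them, and the bases are those of the reference genome mm9, the build of the files, 5′ to 3′ on the strand of the gene. Capitals mark matches, on either strand, to motifs searched by their letters: the GC box GGGCGG, the CCAAT box CCAAT, the TATA box TATAAA, the Runx motif TGTGGT, the AP-1 motif TGACTCA and the Tead motif CATTCC. The Col1a1 stretch (chr11:94798238-94798537, plus strand) lies in an intron, with its centre under the start-site peak of 5 libraries, 849 bases downstream of the most upstream start site. The Col23a1 stretch (chr11:51103237-51103421, plus strand) ends at the base before the gene. The Col11a1 stretch (chr3:113733218-113733457, plus strand) also ends directly upstream of its gene.
Col1a1 intron: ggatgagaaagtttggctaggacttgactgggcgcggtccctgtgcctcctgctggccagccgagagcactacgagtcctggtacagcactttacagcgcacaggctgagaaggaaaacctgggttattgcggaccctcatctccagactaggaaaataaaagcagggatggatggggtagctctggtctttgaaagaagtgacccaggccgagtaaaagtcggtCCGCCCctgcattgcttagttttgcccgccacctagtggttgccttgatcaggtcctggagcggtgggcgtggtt
Col23a1 upstream: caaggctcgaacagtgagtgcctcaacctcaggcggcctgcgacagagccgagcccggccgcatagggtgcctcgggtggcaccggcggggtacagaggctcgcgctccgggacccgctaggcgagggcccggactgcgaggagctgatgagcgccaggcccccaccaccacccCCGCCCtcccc
Col11a1 upstream: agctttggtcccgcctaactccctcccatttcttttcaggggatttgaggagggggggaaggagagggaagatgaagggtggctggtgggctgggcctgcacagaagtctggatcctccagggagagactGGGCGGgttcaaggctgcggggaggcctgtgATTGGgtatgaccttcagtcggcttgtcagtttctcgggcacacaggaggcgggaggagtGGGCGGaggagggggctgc
The Col1a1 and Col23a1 stretches each hold a GC box on the minus strand. The Col11a1 stretch holds GC boxes at positions 131 and 222 and a CCAAT box on the minus strand at position 162, counted from 1 at its 5′ end. Of the 300 bases around the start site of all protein-coding genes, 45.7% hold a GC box and 35.7% a CCAAT box.

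Other stretches are shown because they lie under the other peaks called in the most libraries. The Col23a1 intron (chr11:51353130-51353429, plus strand) and the first of the Col27a1 introns (chr4:62877435-62877734, plus strand) lie in merged regions called in all 7 libraries, where the centre of the stretch itself lay under the peaks of 6 and 4 libraries. The further Col27a1 intron (chr4:62977229-62977528, plus strand) and a stretch downstream of Col5a3 (chr9:20565201-20565500, minus strand) lie in merged regions called in 6 libraries, with the centre under the peaks of 6 and 5. A merged region joins peaks that overlap along a chain, so that not every pair of its peaks overlaps.
Col23a1 intron: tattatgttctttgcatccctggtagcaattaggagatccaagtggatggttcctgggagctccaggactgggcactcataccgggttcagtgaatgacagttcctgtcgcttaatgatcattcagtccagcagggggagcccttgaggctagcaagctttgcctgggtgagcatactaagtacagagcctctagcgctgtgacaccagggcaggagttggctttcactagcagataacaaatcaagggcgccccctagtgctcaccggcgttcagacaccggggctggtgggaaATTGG
Col27a1 intron near the start: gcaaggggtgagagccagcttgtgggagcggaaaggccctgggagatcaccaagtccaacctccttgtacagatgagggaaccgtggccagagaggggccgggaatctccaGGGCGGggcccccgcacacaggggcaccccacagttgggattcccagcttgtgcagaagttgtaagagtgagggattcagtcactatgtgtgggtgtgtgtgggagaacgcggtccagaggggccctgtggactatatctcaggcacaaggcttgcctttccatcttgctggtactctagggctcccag
Col27a1 distant intron: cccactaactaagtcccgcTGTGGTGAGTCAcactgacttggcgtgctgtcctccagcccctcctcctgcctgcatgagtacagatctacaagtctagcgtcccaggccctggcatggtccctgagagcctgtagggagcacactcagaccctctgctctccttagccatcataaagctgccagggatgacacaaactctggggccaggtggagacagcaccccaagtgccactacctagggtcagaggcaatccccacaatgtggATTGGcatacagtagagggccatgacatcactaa
Col5a3 downstream: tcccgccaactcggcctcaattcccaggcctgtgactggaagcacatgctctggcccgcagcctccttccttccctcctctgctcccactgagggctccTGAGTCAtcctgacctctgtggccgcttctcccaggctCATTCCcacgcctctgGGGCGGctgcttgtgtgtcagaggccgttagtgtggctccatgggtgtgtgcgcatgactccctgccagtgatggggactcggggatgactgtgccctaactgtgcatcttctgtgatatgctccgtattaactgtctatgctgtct
In the distant Col27a1 intron the Runx letters at position 20 and the AP-1 letters, on the minus strand, at position 25 overlap by 1 base. The Col5a3 stretch holds an AP-1 match at position 100, a Tead match at position 138 and a GC box at position 154. A match is a description of the letters and not of a bound factor.

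Start-site peaks of collagen genes were called most often in ATAC5, ATAC6 and ATAC2, the 3 libraries with the longest lists. In ATAC5, 21 of 36 genes had one (58.3%, 95% Wilson interval 42.2 to 72.9), beside 52.7% of all protein-coding genes. In ATAC6, 19 of 36 had one (52.8%, interval 37.0 to 68.0), beside 51.5% of all genes. In ATAC2, 18 of 36 had one (interval 34.5% to 65.5%), beside 50.2% of all genes. In these 3 libraries the collagen share was near the background in the full lists, which for ATAC6 changed at equal list length (10 of 36, interval 15.8 to 44.0, beside 45.8%).

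In ATAC7, 13 of 36 collagen genes had a start-site peak (36.1%, interval 22.5 to 52.4), beside 42.0% of all genes. In ATAC1, 10 of 36 had one (27.8%, interval 15.8 to 44.0), beside 49.0% of all genes. The counts were lowest in ATAC3, with 6 of 36 (16.7%, interval 7.87 to 31.9) beside 43.5%, and in ATAC4, with 5 of 36 (13.9%, interval 6.08 to 28.7) beside 43.6%. In ATAC1, ATAC3 and ATAC4 the background lay above the whole interval of the collagen genes, and did so at equal list length too (5, 5 and 3 of 36, upper ends 28.7, 28.7 and 21.8, beside 44.2%, 43.0% and 43.4%). The intervals cover counting error only, and the genes are not independent samples.

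**Figure D1:**
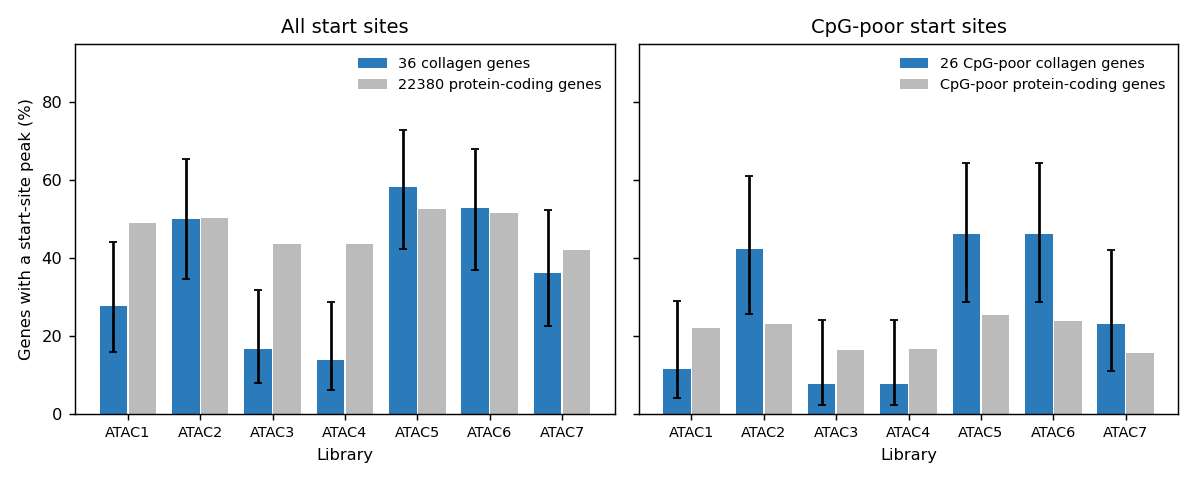
The share of genes (percent) with a start-site peak in each library, on the left for the 36 collagen genes (blue, bars of error are 95% Wilson intervals) and all 22380 protein-coding genes (grey), and on the right for genes with a CpG-poor start site (26 collagen genes, with the same intervals). The collagen share runs from 13.9% in ATAC4 to 58.3% in ATAC5, while the share of all genes runs from 42.0% to 52.7%.

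Few collagen genes were called throughout. Of all protein-coding genes 36.8% had a start-site peak in all 7 libraries, and among the collagen genes Col23a1, which encodes a membrane-spanning collagen, was the 1 gene to have it. With lists of equal length, or with a fold of at least 5, no collagen gene was called in all 7. At the other end 43.4% of all genes had a start-site peak in no library, and 12 of 36 collagen genes (33.3%) did so. The remaining 23 collagen genes had a start-site peak in some libraries and not in others. Collagen genes called in 1, 2, 3, 4, 5 and 6 libraries were 11.1%, 5.56%, 13.9%, 11.1%, 5.56% and 16.7% of the 36. The same shares of all protein-coding genes were 3.08%, 2.67%, 3.08%, 2.84%, 3.26% and 4.90%. Of 252 pairs of collagen gene and library, 92 had a start-site peak, where 42.0% to 52.7% of all protein-coding genes had one per library. In 76 of the 92 pairs the best-ranked peak lay within 1000 bases of the most upstream start site.

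The start-site peaks of the collagen genes held fewer reads than those of genes at large. The median best-ranked start-site peak of the collagen genes held 101 reads in ATAC1, 148 in ATAC2, 111 for ATAC3, 68.0 in ATAC4, 200 in ATAC5, 130 in ATAC6 and 85.0 in ATAC7. All start-site peaks of a library had a median of 241, 188, 216, 202, 273, 283 and 192 reads, in the same order. The collagen median was the lower of the 2 in all 7 libraries. Per kb of the counted region it was lower as well, with 284, 254, 245, 213, 287, 309 and 264 reads per kb for the collagen genes beside 449, 370, 454, 433, 419, 433 and 433 for all. By fold over Input the collagen median was slightly the higher in ATAC2 (8.11 for the collagen genes and 8.07 for all). It was the lower in ATAC1 (5.41 and 7.62), ATAC3 (5.33 and 5.55), ATAC4 (4.2 and 5.94), ATAC5 (9.94 and 10.8), ATAC6 (9.26 and 10.3) and ATAC7 (4.91 and 5.64). The collagen medians take only the best-ranked peak of each gene, and those of all genes take every start-site peak. The 2 are therefore not like for like in reads, fold or rank. In rank, where a low percentage is the top of the list, the collagen medians lay between 39.3% of the list in ATAC5 and 82.9% in ATAC4, and the medians of all start-site peaks between 26.7% and 39.8%.

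**Figure D2:**
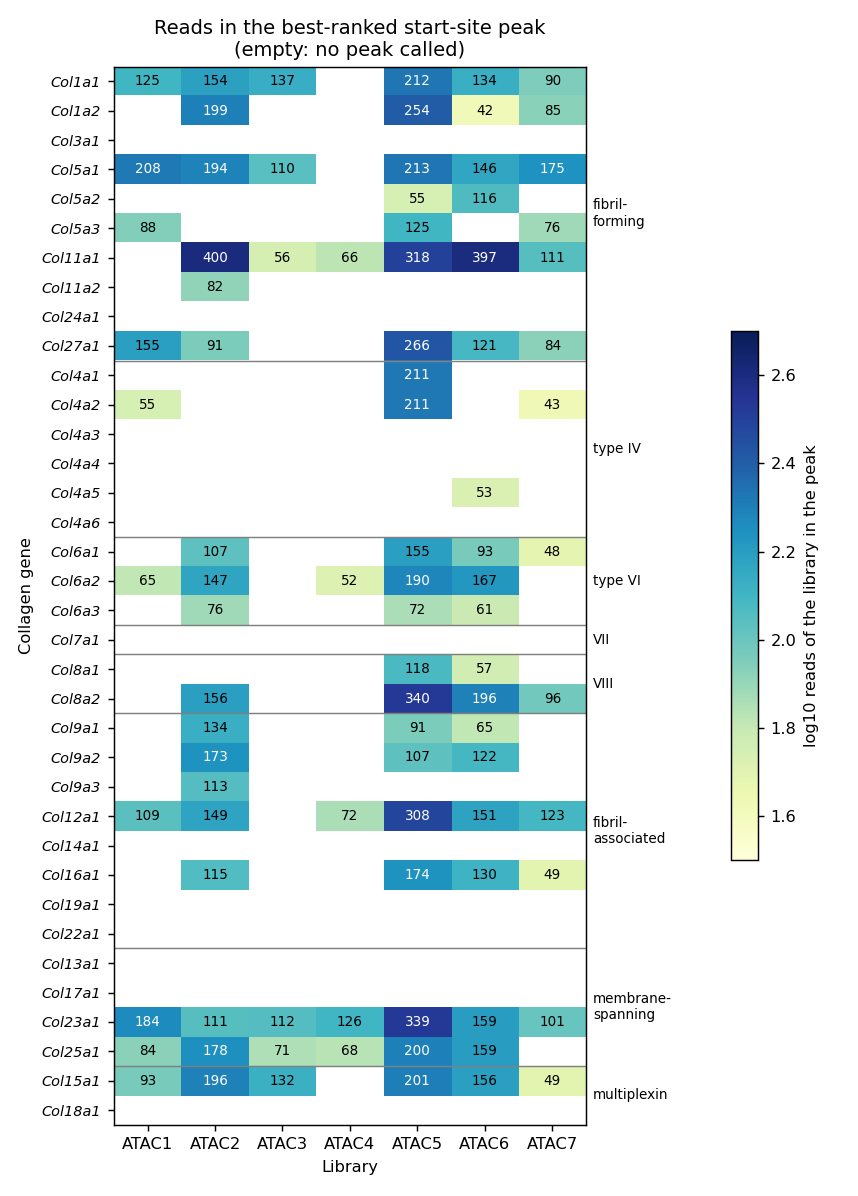
Reads in the best-ranked start-site peak of each collagen gene (rows, grouped by family) in each library (columns), with colour on a log10 scale and empty cells where no peak was called. ATAC5, ATAC6 and ATAC2 fill 21, 19 and 18 of the 36 rows, ATAC3 and ATAC4 fill 6 and 5, and the row of Col23a1 is complete.

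The fibril-forming family, 10 genes, had 33 of its 70 pairs of gene and library called. By library these were 4, 6, 3, 1, 7, 6 and 6 of the 10 genes in ATAC1 to ATAC7. The shares of all protein-coding genes were 49.0%, 50.2%, 43.5%, 43.6%, 52.7%, 51.5% and 42.0%, in the same order. Col1a1 and Col1a2 encode the chains of type I collagen. Col1a1 had a start-site peak in 6 libraries, with 125 reads in ATAC1, 154 in ATAC2, 137 in ATAC3, 212 in ATAC5, 134 in ATAC6 and 90 in ATAC7, and none was called in ATAC4. Per kb of the counted region these were between 240 reads in ATAC2 and 333 in ATAC6, and folds over Input ran from 5.53 in ATAC3 to 13.2 in ATAC6. Without the scale factor, reads over Input ran from 4.81 in ATAC2 to 8.38 in ATAC6. In all 6 the best peak was centred in an intron, between 835 and 979 bases downstream of the most upstream start site of the gene (chr11:94797538-94814356, plus strand), where the sequence printed above lies.

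Col1a2 (chr6:4454814-4491543, plus strand) was called in 4 libraries, with 199 reads in ATAC2, 254 in ATAC5, 74 in ATAC6 and 85 in ATAC7 in the peak centred between 626 and 755 bases from its most upstream start site. Per kb this was 255, 288, 203 and 235 reads. The fold there was 13.1 in ATAC2, 16.7 in ATAC5, 8.96 in ATAC6 and 8.52 in ATAC7, and without the scale factor 8.29, 9.77, 5.69 and 7.73. In ATAC1 and ATAC3, Col1a1 had a start-site peak and Col1a2 had none. In ATAC2, ATAC5 and ATAC6 a further peak was called at Col1a2, and that of ATAC6, with 42 reads the better ranked of its 2, was centred 1594 bases from the most upstream start site, near that of ATAC2 at 1609 bases.

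Col3a1 (chr1:45368383-45406551, plus strand), which encodes the type III chain of soft connective tissue and reticular fibres, had a start-site peak in none of the libraries. It had 6 other peaks, 4 of them in ATAC5 and 1 each in ATAC1 and ATAC2. Its neighbour Col5a2 on the same chromosome, a type V chain gene, was called in ATAC5 with 55 reads and in ATAC6 with 116. Col24a1, a fibril-forming gene, had no start-site peak either, and had 6 other peaks in ATAC2, ATAC5 and ATAC6.

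Col5a1, the type V chain that helps to start fibrils, was called in 6 libraries and had 208 reads in ATAC1, 194 in ATAC2, 110 in ATAC3, 213 in ATAC5, 146 in ATAC6 and 175 in ATAC7. Per kb, Col5a1 had between 242 reads in ATAC2 and 392 in ATAC5, and ATAC4 was the library without a peak. Col5a3 was called in ATAC1 with 88 reads, in ATAC5 with 125 and in ATAC7 with 76. Only 6 of the 22380 protein-coding genes had this set of libraries, and Col4a2 was another of them.

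Col11a1, a type XI chain best known from cartilage, held 400 reads in ATAC2, 318 in ATAC5 and 397 in ATAC6, against 111 in ATAC7, 66 in ATAC4 and 56 in ATAC3, and no peak was called in ATAC1. Per kb of the counted region the values lay closer together, at 343, 430 and 437 reads in ATAC2, ATAC5 and ATAC6 and 264, 213 and 238 in ATAC7, ATAC4 and ATAC3. Fold, which divides by Input and scales by library, was 17.1 in ATAC2, 25.9 in ATAC5 and 22.3 in ATAC6, and 8.17 in ATAC7, 6.22 in ATAC4 and 5.13 in ATAC3. Without the scale factor the ratios were 10.8, 15.1 and 14.2 beside 7.40, 5.50 and 5.09, in the same order. In ATAC3 and ATAC4 the peak stood near the end of the list, at 98.4% and 99.8% of its length. Col11a2 was called in ATAC2, with 82 reads and a fold of 3.41, and in no other library. Col27a1 was called in 5 libraries and is described with the other peaks.

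The type IV genes of basement membranes lie in head-to-head pairs, and 5 of their 42 pairs of gene and library were called. By library these were 1, 0, 0, 0, 2, 1 and 1 of the 6 genes in ATAC1 to ATAC7, beside 42.0% to 52.7% of all genes. Col4a1 (chr8:11198423-11312826, minus strand) and Col4a2 (chr8:11312805-11449287, plus strand) overlap in their first exons by 22 bases, shown here because the peak counted for both genes lies over it (chr8:11312805-11312826, plus strand).
Col4a1 and Col4a2 overlap: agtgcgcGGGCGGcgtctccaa
The overlap holds a GC box. A peak over it was called in ATAC5, with 211 reads against 80 of Input and a fold of 4.52, and counted for both genes. Col4a2 also had a start-site peak in ATAC1 (55 reads) and ATAC7 (43 reads), both centred 91173 bases into the gene and 930 bases upstream of an internal start site. In ATAC5 a lower-ranked peak of 87 reads lay 742 bases downstream of that internal site. So the shared start itself was called in ATAC5 alone, although both genes have CpG-rich start regions.

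The second pair, Col4a3 (chr1:82583496-82718634, plus strand) and Col4a4 (chr1:82447298-82583424, minus strand), were without a start-site peak in all 7 libraries. Col4a3 had no other peak, and the peaks in its window, 13 over all libraries, lay at starts of other genes. Col4a4 had 5 other peaks, 2 each in ATAC2 and ATAC5 and 1 in ATAC7. In the third pair Col4a5 (chrX:137909928-138123778, plus strand) was called in ATAC6, with 53 reads and a fold of 9.26 at 94.4% of the list, and Col4a6 (chrX:137599946-137908619, minus strand) in no library. Neither of this pair had any other peak.

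All 3 type VI genes, whose products form beaded filaments around cells, were called in ATAC2, ATAC5 and ATAC6. Col6a2 had 147 reads in ATAC2, 190 in ATAC5 and 167 in ATAC6, and 65 in ATAC1 and 52 in ATAC4. Col6a1 had 107 reads in ATAC2, 155 in ATAC5, 93 in ATAC6 and 48 in ATAC7. Col6a3 had 76 reads in ATAC2, 72 in ATAC5 and 61 in ATAC6. Per kb, Col6a1 had 301, 240, 204 and 251 reads in ATAC2, ATAC5, ATAC6 and ATAC7, and Col6a2 had 337, 274 and 400 in ATAC2, ATAC5 and ATAC6 beside 196 in ATAC1 and 272 in ATAC4. The fold of Col6a1 was 9.39, 9.48 and 8.13 in ATAC2, ATAC5 and ATAC6 and 3.78 in ATAC7 (without the scale factor 5.94, 5.54, 5.17 and 3.43). That of Col6a2 was 10.1, 9.30 and 10.5 in the same 3 libraries, 3.80 in ATAC1 and 4.2 in ATAC4 (without it 6.39, 5.43, 6.68, 3.10 and 3.71). By fold, ATAC2, ATAC5 and ATAC6 thus stood above the rest for both genes, and per kb they did not for Col6a1. In the type VIII pair, whose short chains form a hexagonal lattice, Col8a1 was called in ATAC5 with 118 reads and in ATAC6 with 57. Col8a2 had 156 reads in ATAC2, 340 in ATAC5, 196 in ATAC6 and 96 in ATAC7, centred between 14417 and 14702 bases into the gene and 680 to 965 bases from an internal start site. At its most upstream start site Col8a2 had lower-ranked peaks with 62 reads in ATAC2, 85 in ATAC5 and 49 in ATAC6, centred 14 bases downstream and 6 and 36 bases upstream of it.

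Of the 8 fibril-associated genes, Col12a1 was called in the most libraries. It had 109 reads in ATAC1, 149 in ATAC2, 72 in ATAC4, 308 in ATAC5, 151 in ATAC6 and 123 in ATAC7, or 253, 341, 211, 381, 327 and 306 reads per kb. Col16a1 had 115 reads in ATAC2, 174 in ATAC5, 130 in ATAC6 and 49 in ATAC7. Type IX collagen, which coats the thin fibrils of cartilage, is made from Col9a1, Col9a2 and Col9a3. Col9a1 had 134 reads in ATAC2, 91 in ATAC5 and 65 in ATAC6, near an internal start site, between 17918 and 18214 bases into the gene. Col9a2 had 173, 107 and 122 reads in the same libraries, and Col9a3 had 113 reads in ATAC2. None of the type IX genes was called in ATAC1, ATAC3, ATAC4 or ATAC7. Col14a1, Col19a1 and Col22a1 had no start-site peak, and had 3, 1 and 8 other peaks.

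Among the membrane-spanning genes, Col23a1 was the gene called throughout, with 184 reads in ATAC1, 111 in ATAC2, 112 for ATAC3, 126 in ATAC4, 339 in ATAC5, 159 in ATAC6 and 101 in ATAC7. Per kb the values lay between 206 reads in ATAC7 and 386 in ATAC5, and ATAC3, with 381, was close to ATAC5. Folds ran from 3.60 in ATAC7 to 11.2 in ATAC5, and reads over Input without the scale factor from 3.26 in ATAC7 to 6.52 in ATAC5. Col25a1 was called in all libraries but ATAC7, with 84 reads in ATAC1, 178 in ATAC2, 71 for ATAC3, 68 in ATAC4, 200 in ATAC5 and 159 in ATAC6, or 315, 232, 226, 194, 311 and 310 reads per kb. It had no other peak along 418987 bases of gene. Col13a1, which sits at the neuromuscular junction, and Col17a1, a component of hemidesmosomes, had no start-site peak, and had 1 and 4 other peaks.

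The multiplexins carry the fragments known as restin and endostatin. Col15a1 was called in 6 libraries, with 93 reads in ATAC1, 196 in ATAC2, 132 in ATAC3, 201 in ATAC5, 156 in ATAC6 and 49 in ATAC7, or 275, 282, 247, 365, 309 and 331 reads per kb. In ATAC1 and ATAC3 the best peak lay near an internal start site, 95324 and 95475 bases into the gene, and in the others at the most upstream one, where ATAC3 also had a lower-ranked peak of 79 reads. Col18a1, the gene of the endostatin precursor, had no start-site peak and 6 other peaks. Col7a1, the anchoring fibril gene of skin, had neither, and the 7 peaks of its window lay at starts of other genes. Col4a3, Col4a6 and Col7a1 were thus the 3 collagen genes without a start-site or other peak.

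Most collagen genes do not start in CpG-rich DNA, defined over 1000 bases as at least 50% GC with an observed over expected CpG of at least 0.6. There were 10 such collagen genes of 36, against 44.2% of all genes, and the median observed over expected CpG was 0.454 against 0.549. Among the 26 CpG-poor collagen genes 11 had a start-site peak in ATAC2 (42.3%, beside 23.0% of all CpG-poor genes), 12 in ATAC5 (46.2% beside 25.3%), 12 in ATAC6 (46.2% beside 23.9%) and 6 in ATAC7 (23.1% beside 15.7%). In ATAC1 there were 3 (11.5% beside 22.1%), and in ATAC3 and ATAC4 2 each (7.69%, beside 16.3% and 16.6%). The Wilson interval of the CpG-poor collagen genes lay above the background in ATAC2 (25.5 to 61.1), ATAC5 (28.8 to 64.5) and ATAC6 (28.8 to 64.5). At equal list length, given below, the interval of each of these held the background. In the full lists it held the background in ATAC7 (upper end 42.1), ATAC1 (upper end 29.0), ATAC3 and ATAC4 (2.14 to 24.1 each). Among the 10 CpG-rich collagen genes 7 were called in ATAC1, ATAC2, ATAC6 and ATAC7 (70.0%, beside 83.0%, 84.4%, 86.4% and 75.3% of all CpG-rich genes). In ATAC5 there were 9 (90.0% beside 87.4%), in ATAC3 4 (40.0% beside 77.8%) and in ATAC4 3 (30.0% beside 77.8%), so that ATAC5 was the library where the CpG-rich share was not below the background.

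The collagen genes called in 5 to 7 libraries had a median observed over expected CpG of 0.729, with 6 of 9 CpG-rich. Those called in 1 to 4 libraries had 0.443, with 3 of 15 CpG-rich, and those called in none had 0.413, with 1 of 12, which was Col13a1. Col1a1, at 0.301, and Col11a1, at 0.459, have CpG-poor start regions and were called in 6 libraries. The value covers 500 bases on each side of the start, so that the Col1a1 peaks are centred outside it. In the same 1000 bases a GC box was found in 69.4% of collagen genes and 59.9% of all genes, a CCAAT box in 69.4% and 70.4%, a TATA box in 30.6% and 32.1%, a Runx motif in 27.8% and 42.1%, an AP-1 motif in 11.1% and 12.1%, and a Tead motif in 36.1% and 38.6%.

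Away from start sites the libraries parted further. The windows of the 36 genes, 5.21 Mb in all, held 77 other peaks in ATAC2, 77 in ATAC5 and 55 in ATAC6, and 17 in ATAC1, 14 in ATAC7, 10 in ATAC3 and 6 in ATAC4. Per Mb this was 14.8 in ATAC2, 14.8 in ATAC5 and 10.6 in ATAC6, where the windows of all protein-coding genes held 9.22, 8.99 and 8.02. In ATAC1 it was 3.27 beside 5.80, in ATAC3 1.92 beside 2.38, in ATAC4 1.15 beside 2.24 and in ATAC7 2.69 beside 2.33. The density at collagen genes was thus above that of all genes in ATAC2, ATAC5, ATAC6 and ATAC7 and below it in the rest. Without Col27a1, which held 18.8% of these peaks, it was 12.4 in ATAC2, 12.6 in ATAC5 and 8.88 in ATAC6, still above all genes, and 2.17 in ATAC7, then below. Per 1000 peaks of the library, collagen windows took 2.39 in ATAC2 (Wilson interval 1.91 to 2.98), 2.45 in ATAC5 (1.96 to 3.06) and 1.90 in ATAC6 (1.46 to 2.47). They took 0.922 in ATAC7 (0.549 to 1.55), 0.694 in ATAC1 (0.433 to 1.11), 0.624 in ATAC3 (0.339 to 1.15) and 0.383 in ATAC4 (0.176 to 0.836). The intervals of ATAC6 and ATAC7 overlapped. The windows of all protein-coding genes also took more in ATAC2, ATAC5 and ATAC6 (358, 358 and 347 per 1000 peaks) than in ATAC1, ATAC3, ATAC4 and ATAC7 (297, 186, 179 and 192).

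At least 1 other peak was called at 26 collagen genes in ATAC2, 27 in ATAC5 and 24 in ATAC6, beside 28.4%, 29.9% and 28.4% of all protein-coding genes. It was called at 9 in ATAC1, 8 in ATAC3, 5 in ATAC4 and 9 in ATAC7, beside 23.3%, 11.6%, 11.9% and 11.6%. These shares cannot be read against each other directly, since the median collagen gene is 117122 bases long and the median protein-coding gene 15420.

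**Figure D3:**
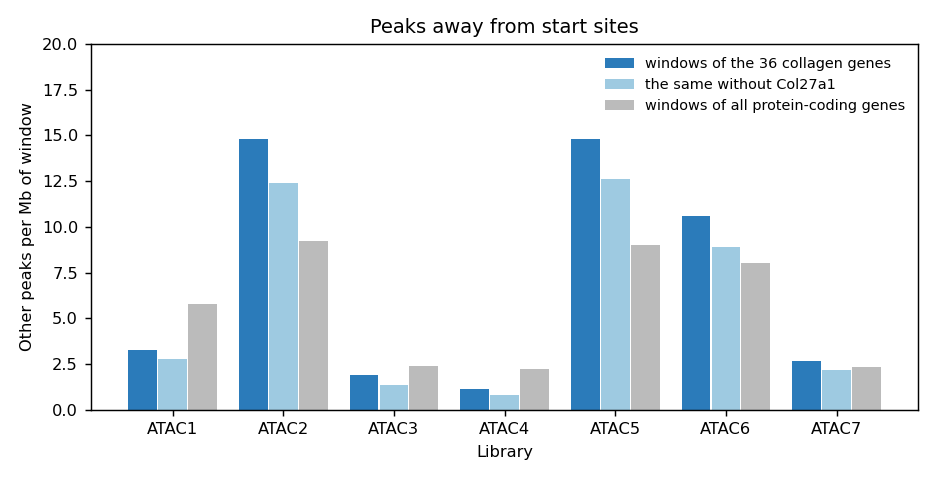
Other peaks per Mb of window (gene and 10 kb on each side) in each library for the 36 collagen genes (dark blue), for these without Col27a1 (light blue) and for all protein-coding genes (grey). Collagen windows reach 14.8 per Mb in ATAC2 and ATAC5 and 10.6 in ATAC6, above the grey bars, and stay at 3.27 or less in the other 4 libraries. The bars are of the full lists, and at equal list length ATAC6 (2.88) and ATAC7 (2.69) lay close.

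Merged across libraries, the 256 other peaks made 126 regions, of which 96 lay in introns, 18 upstream, 11 downstream and 1 in a coding exon. Of these regions 66 (52.4%) were called in 1 library and 2 (1.59%) in all 7, beside 49.9% and 4.13% of the regions of all protein-coding genes. In 99 of 126 (78.6%, Wilson interval 70.6 to 84.8) the calls came only from ATAC2, ATAC5 or ATAC6, while 60.0% of the 21203 regions of all protein-coding genes did so. Without Col27a1 the share was 84 of 106 regions, or 79.2%. Only 6 collagen regions (4.76%) had no call in any of these 3 libraries, beside 2966 of the 21203 of all genes. In the 300 bases at their centres, an AP-1 motif was found in 27.8% of collagen regions and 22.5% of all, a Runx motif in 31.0% and 29.7%, a Tead motif in 19.8% and 17.3%, a CCAAT box in 31.0% and 30.0%, a TATA box in 13.5% and 10.8%, and a GC box in 9.52% and 14.4%. The interval of each collagen share held the share of all regions.

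Col27a1, which encodes a fibril-forming chain of cartilage and growing bone, had 20 of the 126 regions and 48 of the 256 peaks. The region nearest its start, in an intron centred 2597 bases downstream of the most upstream start site, was called in every library, although not all of its peaks overlap each other. It held 92 reads in ATAC1, 372 in ATAC2, 73 for ATAC3, 60 in ATAC4, 531 in ATAC5, 691 in ATAC6 and 164 in ATAC7. Per kb of the counted region the values were closer, with 441, 443 and 354 reads in ATAC2, ATAC5 and ATAC6, 317 in ATAC7 and 244, 217 and 214 in ATAC1, ATAC3 and ATAC4. Fold ran from 4.91 in ATAC3 to 22.6 in ATAC2, and reads over Input without the scale factor from 4.87 to 14.3 in the same libraries. Its peaks in ATAC7, ATAC3, ATAC2, ATAC5 and ATAC4 lay 1033, 1035, 1121, 1150 and 1181 bases from the nearest start site, just outside the limit of 1000 bases.

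The distant Col27a1 region, 102354 bases into the gene, had 90 reads in ATAC1, 215 in ATAC2, 70 in ATAC3, 160 in ATAC5, 128 in ATAC6 and 105 in ATAC7, and was not called in ATAC4. Per kb it had between 181 reads in ATAC1 and 303 in ATAC2, and its fold was 22.6 in ATAC2, 21.1 in ATAC5 and between 7.84 and 14.4 in the others (without the scale factor 14.3, 12.3 and 7.78 to 9.55). The start-site peaks centred between 1166 and 1488 bases into the gene had 155 reads in ATAC1, 200 in ATAC2, 266 in ATAC5, 121 in ATAC6 and 84 in ATAC7. In ATAC2 the best-ranked start-site peak was another, with 91 reads at the most upstream start site. The microRNA gene Mir455 lies inside Col27a1 (chr4:62917885-62917966), 2930 bases from the centre of the nearest other region.

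**Figure D4:**
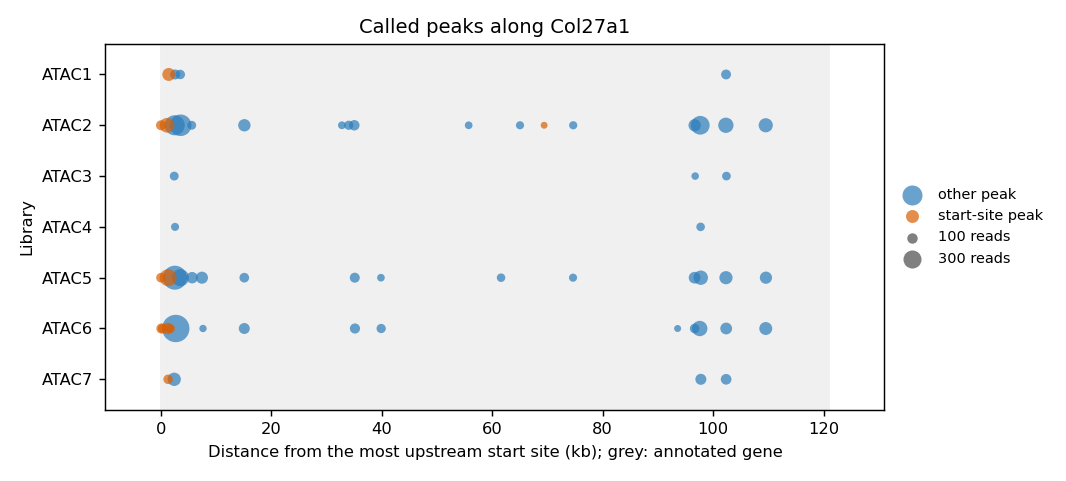
Called peaks along Col27a1 in each library, by distance of the peak centre from the most upstream start site (kb), with the area of a point proportional to its reads, blue for other peaks and orange for start-site peaks. ATAC2, ATAC5 and ATAC6 carry 14, 13 and 10 other peaks spread over the gene, and the other libraries 2 or 3 each, near the start and towards the far end.

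After Col27a1 the most regions were at Col4a2, with 10 regions and 25 peaks, 8 of these in ATAC5. A Col4a2 intron 69958 bases from the start was called in 5 libraries, with 113 reads in ATAC1, 219 in ATAC2, 331 in ATAC5, 106 in ATAC6 and 110 in ATAC7, or 150, 255, 287, 283 and 247 reads per kb. ATAC1 had a further peak of 105 reads in it. Of the 10 Col4a2 regions 9 lay in introns. In ATAC3 and ATAC4 the 1 other peak of Col4a2 lay downstream of the gene, so that no peak was called within it. Col5a1 had 8 regions and 15 peaks, and Col15a1 8 regions and 17 peaks. Col6a1 had 7 regions, or 18.7 per 100 kb of window, above the 14.2 of Col27a1, and all of them lay upstream or downstream of this short gene. A region upstream of Col6a1, at -4197 bases from its start, held 468 reads in ATAC6 with a fold of 21.7, 71 in ATAC3 with 5.51 and 43 in ATAC7 with 9.48, or 381, 135 and 426 reads per kb. Col11a1 and Col4a1 followed with 6 regions each.

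The Col23a1 intron called in all 7 libraries and the Col5a3 downstream region called in 6 are those printed above. The Col23a1 region, 249875 bases into the gene, held 111 reads in ATAC1, 68 in ATAC2, 77 for ATAC3, 66 in ATAC4, 159 in ATAC5, 98 in ATAC6 and 58 in ATAC7. Per kb these were between 260 reads in ATAC7 and 582 in ATAC5. The Col5a3 region, 54075 bases from the start and beyond the end of the gene, held 57 reads in ATAC1, 262 in ATAC2, 77 in ATAC3, 270 in ATAC5, 267 in ATAC6 and 200 in ATAC7. Per kb, ATAC2, ATAC5 and ATAC6 had 459, 417 and 433 reads, ATAC7 342, ATAC3 289 and ATAC1 238, and ATAC2 and ATAC6 had no start-site peak of Col5a3. Col4a5, Col4a6, Col4a3, Col7a1 and Col25a1 had no other region.

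At the limit of 1000 bases, the start-site peaks closest to it were those of Col8a2 in ATAC5, at 965 bases with 340 reads, and of Col4a2 in ATAC1 and ATAC7, at 930 bases. Just outside it, besides those of Col27a1, lay a Col8a2 peak in ATAC2 at 1043 bases with 135 reads and a Col11a1 peak in ATAC2 at 1162 bases with 44 reads.

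The lists differ in length, so each was also cut to its 15188 best-ranked peaks. The collagen genes with a start-site peak were then 5 in ATAC1, 11 in ATAC2, 5 for ATAC3, 3 in ATAC4, 15 in ATAC5, 10 in ATAC6 and 13 in ATAC7, with 41.5% to 45.8% of all genes in each. Set against all genes in the same shortened lists, the collagen share differed by -10.9 percentage points in ATAC2, -18.1 in ATAC6 and -3.88 in ATAC5. At equal length ATAC5 and ATAC7 had the most, and ATAC3 and ATAC4 remained among the lowest with ATAC1. The other peaks per Mb were 0.384 in ATAC1, 4.03 in ATAC2, 1.34 for ATAC3, 0.384 in ATAC4, 4.03 in ATAC5, 2.88 in ATAC6 and 2.69 in ATAC7, where all genes had between 2.05 and 2.63. In this setting the densities were above those of all genes in ATAC2 (4.03 beside 2.63), ATAC5 (4.03 beside 2.52), ATAC6 (2.88 beside 2.47) and ATAC7 (2.69 beside 2.33). Col27a1 is counted in these densities. The shortened lists were not counted without Col27a1, so whether the differences hold without that gene was not tested. The list of ATAC7, the shortest, is not changed by the cut. Among CpG-poor collagen genes 6 of 26 were then called in ATAC2, ATAC5 and ATAC7 (23.1% each, beside 15.6%, 18.1% and 15.7% of all CpG-poor genes) and 5 in ATAC6 (19.2% beside 18.2%), while ATAC1, ATAC3 and ATAC4 had 1 each (3.85%, beside 17.4%, 15.9% and 16.3%). The Wilson interval of these genes then held the background in ATAC2 and ATAC5 (upper end 42.1 in both) and ATAC6 (8.51 to 37.9), so that the gap above the background seen in the full lists of these 3 libraries was not kept. Of the other regions, 27 of 46 (58.7%, Wilson interval 44.3 to 71.7) were called only in ATAC2, ATAC5 or ATAC6, beside 32.0% of the 7950 regions of all genes.

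The genes that make, process and bind collagen were described the same way. Beside each count in ATAC1 to ATAC7 stands the share of all protein-coding genes with a start-site peak, which was 49.0%, 50.2%, 43.5%, 43.6%, 52.7%, 51.5% and 42.0%. Of 17 annotated genes for synthesis and folding, 13, 16, 10, 10, 14, 15 and 12 had a start-site peak in ATAC1 to ATAC7. In all 7 libraries 9 had it, beside 36.8% of all genes. Those 9 include P4ha1 and P4hb, subunits of the prolyl hydroxylase that stabilises the helix, and Plod1, Plod2 and Plod3, the lysyl hydroxylases. Serpinh1, the collagen chaperone HSP47, was not called in all, and neither were P4ha2, P4ha3, P3h2, P3h3, Crtap, Fkbp10 and Colgalt2. Serpinh1 had 127 reads in ATAC2, 109 in ATAC5, 107 in ATAC6 and 77 in ATAC7, the set of libraries that Col1a2 had. The set was shared by Col6a1, Col8a2 and Col16a1 and was found in 59 of all protein-coding genes.

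Of 14 genes for processing and cross-linking, 5, 11, 4, 3, 13, 11 and 6 had a start-site peak in ATAC1 to ATAC7, beside 42.0% to 52.7% of all genes. Lox, the lysyl oxidase that cross-links fibrils, was called in ATAC2, ATAC3, ATAC5, ATAC6 and ATAC7. Bmp1, the protease that removes the C-terminal propeptide, was called in all libraries but ATAC4, as Col1a1 was. Sparc, a collagen-binding matrix protein, was called in ATAC2, ATAC5 and ATAC6.

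Of 7 breakdown genes, 1, 2, 0, 0, 3, 3 and 1 were called, and Mmp2, Mmp8 and Mmp13 in no library. Of 9 receptor genes, 4, 6, 3, 2, 4, 5 and 4 were called. The breakdown and receptor counts stand beside the same 42.0% to 52.7% of all genes. Itga1, an integrin chain for collagen, had a peak in all 7 libraries, and Ddr2, a receptor kinase for fibrillar collagen, in ATAC2, ATAC5, ATAC6 and ATAC7. Of 5 collagen genes outside the 36, Col2a1, the major collagen of cartilage, was called in ATAC2, ATAC5 and ATAC6 and the other 4 in none.

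Markers of cell types were read in the same way. Of 20 stromal markers, 5, 8, 3, 4, 11, 6 and 5 had a start-site peak in ATAC1 to ATAC7, where 49.0%, 50.2%, 43.5%, 43.6%, 52.7%, 51.5% and 42.0% of all protein-coding genes had one. Nt5e and Ebf3 were called in all 7 and Pdgfra in ATAC2, ATAC4, ATAC5, ATAC6 and ATAC7, while Ly6a, Prrx1, Thy1 and Lepr were called in none. Of 19 haematopoietic markers, 6, 3, 5, 5, 8, 4 and 2 were called, and Ptprc, the pan-leukocyte gene Cd45, was called in ATAC1, ATAC3, ATAC5 and ATAC7. Of 20 endothelial markers, 2, 3, 0, 2, 7, 4 and 0 were called. ATAC5, with the most collagen genes, also had the most start-site peaks of all 3 marker lists. The sort stained CD31, CD45 and TER119 to leave endothelial and blood cells out, and a part of such cells in the collagen counts was not tested.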

How the data were processed

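The data were peak lists of 7 ATAC-seq libraries of mouse bone marrow stromal cells, each called against 1 Input library. The authors aligned reads to mm9 with bowtie and called peaks per library with the two-sample mode of CisGenome under their own p-value and FDR limits. The submitters' processing notes also name DiffBind and bedtools. A shift of reads for Tn5, which alters the edges of peaks slightly, and a removal of duplicates are not given in the sources used here. Columns carry no names in the deposited tables and were told apart by their values. The deposited read counts of library and Input are whole numbers in the outer region of a peak. The authors' fold is a ratio, a scale factor times library reads over Input reads plus 0.01, and the scale factor lay between 1.01 and 1.71. The ranking statistic of the deposited tables is a signal from the peak caller and was used as rank. Coordinates are printed as the files give them.

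The 36 genes, and the lists of pathway genes and markers, were chosen with earlier results of these data known. Genes were placed with GENCODE vM1 on mm9. P3h1 and others were matched by older symbols, and Mia3 and Spi1 were not matched. Every collagen gene was accounted for. Values in every library were given by rule for genes called in all 7 libraries, Col1a1, Col1a2, Col3a1, the type IV pairs, genes called in 1 or 2 libraries, and the regions and genes with the most other peaks. Other genes were named after their values were seen. Peaks overlapping between libraries were merged into regions. Shares of collagen genes per library, of CpG-poor collagen genes and of regions have 95% Wilson intervals for counting error only. Other shares have none. With 1 library per title no test was made. The assignment of peaks to start sites was tested on simulated data. Python 3.11.15, numpy 2.4.6, pandas 2.3.3, scipy 1.17.1, pysam 0.24.0, samtools 1.23.1 and matplotlib 3.10.9 were used. Alternatives changed the limit of 1000 bases, the start sites, the flanks, the peak bounds, the fold and the list length.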

Additional observations from a re-analysis of the deposited data

How the results depend on the processing

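Of 189 values recomputed under an alternative, 163 stayed within 1.5 times the reported count or within its interval, and 26 did not. With the 15188 best-ranked peaks of each list, start-site peaks were found at 5 collagen genes in ATAC1, 11 in ATAC2, 3 in ATAC4 and 10 in ATAC6. The difference from all genes in ATAC6 became -18.1 percentage points, and other peaks numbered 2 in ATAC1, 21 in ATAC2, 2 in ATAC4, 21 in ATAC5 and 15 in ATAC6. Shorter lists hold fewer peaks by construction. With a fold of at least 5, start-site peaks were found at 2 genes in ATAC4 and 6 in ATAC7. The count of genes called in all 7 libraries, 1 as reported, became 0 under both settings. With flanks of 50 kb, other peaks numbered 39, 132, 19, 16, 126, 101 and 31 in ATAC1 to ATAC7, and without flanks 11 in ATAC1 and 5 in ATAC3. With peaks at start sites of other genes kept, they numbered 20 in ATAC3, 17 in ATAC4, with 23 for ATAC7. These settings change the bases and peaks counted. The limit of 500 bases, the nearest base, coding transcripts, outer regions and peaks without Input reads moved no count by over 1.5 times, nor did leaving out Col27a1, an alternative chosen after seeing the data. No paired analysis was possible because every title stands for a lone library. The depth of the libraries is unknown, so a gene without a peak may have been missed.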
